A study of Mus musculus with 4 samples.

Results

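The miR-465 family is a set of mouse miRNAs encoded in tandem on the X chromosome, and its levels were compared between wild-type (WT) R1 mouse embryonic stem cells (ESCs) and R1 ESCs that lack the DNA methyltransferases Dnmt1, Dnmt3a and Dnmt3b after a knockout of all their genes (TKO). Its probes were chosen by name, as all probes of the NanoString nCounter miRNA assay whose miRNA name starts with mmu-miR-465, which gave 4 of 566 mouse miRNA probes in a table of 599. These were mmu-miR-465a-5p, mmu-miR-465b-5p, mmu-miR-465c-5p and mmu-miR-465a-3p, written below without the species prefix mmu. The family was picked out with its TKO and WT values already known, so the values below are a description and no p is given for them. The study asked how miRNA levels change in cells that lack DNA methylation, and 4 samples were profiled, 2 biological replicates per genotype. Cells of both genotypes were kept on gelatin in serum medium with leukemia inhibitory factor, and the labels state that all were differentiated for 4 days before RNA was taken. How they were differentiated is not given in the sources used here. The TKO cells are a separate line, so that the missing enzymes and any other difference between the lines cannot be told apart. Methylation was not measured in these samples.

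miRNAs are short RNAs that pair with messenger RNAs mainly through a seed near their 5′ end and lower the output of those messengers. Each is cut from a hairpin in a longer transcript, first by Drosha in the nucleus and then by Dicer in the cytoplasm, and either arm of the hairpin (5p or 3p) can be kept as the mature form. The miR-465 genes belong to a fast-evolving group of miRNA genes between Slitrk2 and Fmr1 that is known for its expression in the testis, in the cells that make sperm. DNA methylation is known as one means by which germline genes are kept silent in other cells.

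In the RefSeq annotation of GRCm38.p6 the family has 6 genes on the minus strand of chromosome X. From low to high coordinates they are Mir465d, Mir465c-1, Mir465b-1, Mir465c-2, Mir465b-2 and Mir465, which encodes miR-465a. They lie between 66822656 and 66839125, a span of 16.5 kb, and follow each other at regular steps of 3.25 to 3.32 kb from start to start. No other annotated gene overlaps this span. The hairpins of Mir465b-1 and Mir465b-2 are identical in sequence, and so are those of Mir465c-1 and Mir465c-2, so that no assay of the mature miRNA can separate these copies. The assay had no probe for miR-465d.

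The mature sequences are shown because they set what each probe can tell apart. They are from RefSeq (GRCm38.p6) and run 5′ to 3′, with the seed (bases 2 to 8) in capitals.
miR-465a-5p: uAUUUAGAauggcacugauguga
miR-465b-5p: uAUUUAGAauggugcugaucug
miR-465c-5p: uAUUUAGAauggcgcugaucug
miR-465a-3p: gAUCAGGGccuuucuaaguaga

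The 3 measured 5p miRNAs share the seed AUUUAGA and differ only further along. Counted from the 5′ end, miR-465b-5p and miR-465c-5p are separated by the single substitution U13C. miR-465a-5p differs from miR-465c-5p by A14G and G20C, and is longer at its 3′ end (23 against 22 bases). The 3p arms of miR-465a, miR-465b and miR-465c are the same sequence, so the probe named for miR-465a-3p stands for the arms of all these genes. Among 1679 mature mouse miRNA names in the RefSeq table, the 5p seed was held by 4 (miR-465a, b, c and d) and the 3p seed AUCAGGG by 3 (miR-465a, b and c), with none outside the family. The closest miRNA outside the family, aligned from the first base without gaps, differed at 6 or 7 bases for each of the 4 measured sequences. Cross-reading between the 5p probes was not measured in these data, and values of single 5p members are uncertain to that extent. The sequence of miR-465d-5p, which had no probe, differs from miR-465a-5p by the single substitution C13U. Whether the miR-465a-5p and 3p probes also read miR-465d was not measured.

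The hairpins are shown because methylation is at issue and they differ in CpG content. Both mature arms are in capitals, and the sequences are from RefSeq.
Mir465 (chrX:66839052-66839125): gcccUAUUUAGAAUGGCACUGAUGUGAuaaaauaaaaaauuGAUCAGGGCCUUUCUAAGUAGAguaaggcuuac
Mir465b-1 (chrX:66829202-66829280): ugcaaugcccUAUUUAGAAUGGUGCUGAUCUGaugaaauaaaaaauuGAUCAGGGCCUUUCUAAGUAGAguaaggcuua
Mir465c-1 (chrX:66825955-66826035): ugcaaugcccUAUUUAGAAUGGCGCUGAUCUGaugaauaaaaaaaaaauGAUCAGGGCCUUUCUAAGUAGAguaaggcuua

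The Mir465c hairpins hold 1 CpG each, at the place in the 5p arm where it differs from miR-465b, and the hairpins of Mir465, Mir465b-1, Mir465b-2 and Mir465d hold none. By comparison, 66.5% of 1005 mouse hairpins in the same table contain a CpG. The miR-465 hairpins had a GC content of 31.0% to 37.0%, against a median of 51.7% over all hairpins. What lies beyond the hairpins was not analysed here.

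All 4 samples carried the miRNAs known for ESCs at high level. The 11 probes of the miR-290 to miR-295 cluster, the main miRNA cluster of ESCs, summed to between 271498 and 338120 of the 504742 to 595104 normalized mouse counts in a sample. The normalized counts were whole molecule counts multiplied by 1 factor per sample, and the counts so recovered totalled 511661 to 613666 over all probes. The 33 probes for viral miRNAs served as an estimate of background. Their mean lay between 28.2 and 36.7 normalized counts in each sample, and their mean plus 2 SD between 60.4 and 88.1.

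In TKO cells the probes of the family read 153 to 508 normalized counts, and in WT cells 16.5 to 43.9. For mmu-miR-465c-5p, WT replicates 1 and 2 read 28.9 and 31.1 normalized counts, against 492 and 508 for TKO replicates 1 and 2. Both WT values sat at the level of the viral probes and both TKO values far above it, and the replicates of each genotype were close together. With 1 added to each normalized count before taking log2, the TKO mean minus the WT mean was 4.02 (SE 0.15, n = 2 a group), from means of 30.0 ± 1.55 to 500.2 ± 11.3 normalized counts (SD). Each SE of a difference, here and below, is limma's, moderated toward the spread shared by all mouse probes. It is not the spread of the probe's own replicates alone.

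For mmu-miR-465b-5p, the WT samples read 43.9 and 36.9 normalized counts and the TKO samples 442 and 336. It was the highest of the family in WT cells, and its TKO replicates lay apart by more than counting error, with exact Poisson 95% intervals of 402 to 485 and 299 to 375. Such intervals cover counting error only, and they hold only if the recovered counts are raw molecule counts. Its log2 difference was 3.23 (SE 0.21).

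For mmu-miR-465a-5p, the WT samples read 22.5 and 21.4 normalized counts and the TKO samples 235 and 236, which gave a log2 difference of 3.37 (SE 0.14). Its replicates were the closest of the family in both genotypes. The probe for the shared 3p arm read 24.6 and 16.5 normalized counts for the WT samples and 211 and 153 for the TKO samples, with a log2 difference of 3.09 (SE 0.28). Its TKO replicates, like those of miR-465b-5p, had Poisson 95% intervals that did not overlap (183 to 241 and 129 to 181). Its lower TKO value was still 6.23 times its higher WT value. The corresponding ratio was 7.65 for miR-465b-5p, 10.5 for miR-465a-5p and 15.8 for miR-465c-5p.

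**Figure D1:**
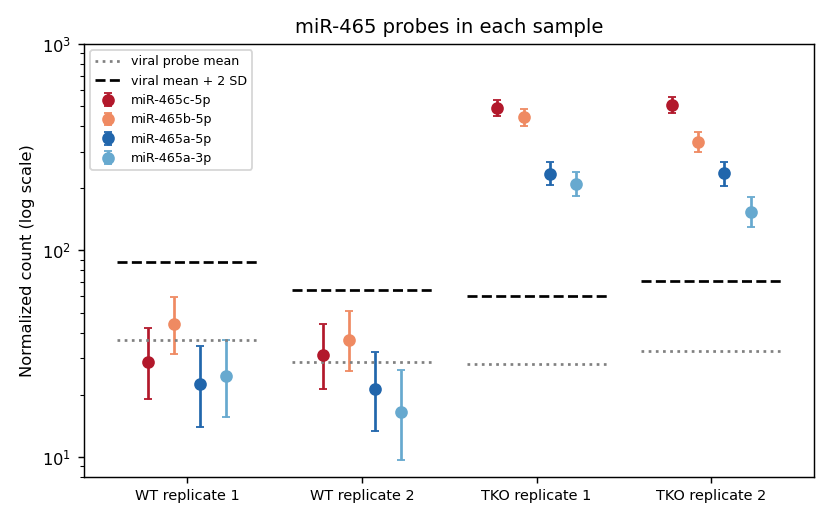
Normalized count (log axis) of the 4 miR-465 probes in each of the 4 samples, with exact Poisson 95% intervals as bars and lines at the viral mean and 2 SD above it. All WT values lie below the dashed line and all TKO values above it, between 153 and 508 normalized counts.

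The WT values do not show how much miR-465 RNA WT cells held. In every WT sample all 4 probes read below the viral mean plus 2 SD, at 0.255 to 0.573 times that threshold. Over both WT samples together the recovered counts of each probe came to 40 to 79. With the threshold of each WT sample in place of the WT value, miR-465c-5p was at least 6.64-fold higher in TKO cells, miR-465b-5p at least 5.11-fold, miR-465a-5p at least 3.13-fold and the 3p probe at least 2.38-fold. These bounds depend on the threshold. With the highest viral probe of each WT sample in its place they were lower, at 5.98, 4.61, 2.82 and 2.15 in the same order. Subtracting the viral mean of each sample, which takes most WT values to a floor of 1, gave log2 differences between 5.36 and 7.51, so the size of the change is not resolved. The assay reads RNA from the whole culture, and a few cells with much miR-465 cannot be told apart from many cells with little.

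All 4 probes had both TKO values above both WT values, which held for 17.3% of the mouse probes. limma called all 4 higher in TKO cells after adjustment over the 566 mouse probes, where it called 4.24% higher and 8.48% in either direction, and since these values had chosen the family nothing is read from that count. The call was kept by 4 of the 4 probes without WT replicate 1, by 3 without WT replicate 2 and by 0 without either TKO replicate, where limma called 0 mouse probes in any direction. By size of difference the 4 probes ranked 2, 5, 6 and 8 of 566. Ranked by level among the mouse probes, miR-465c-5p stood at percentiles 30.0 and 39.0 for WT and 87.8 and 88.0 for TKO, and the 3p probe at 24.9 and 17.8 against 78.6 and 74.9. Together the 4 probes made up 0.0204% and 0.0178% of the mouse signal for WT and 0.273% and 0.214% for TKO. The family was thus a small part of the summed probe signal in both genotypes, which is not a share of molecules.

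**Figure D2:**
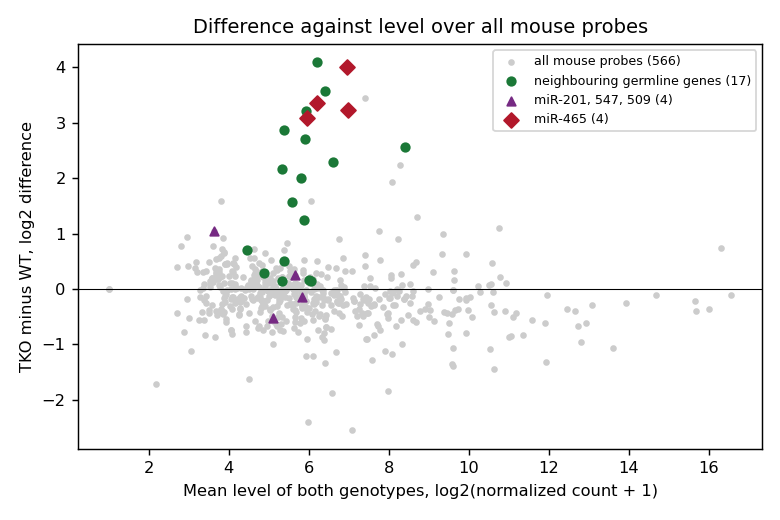
Difference between TKO and WT (log2) against the mean level of both genotypes for 566 mouse miRNA probes, 1 point a probe. The 4 miR-465 probes (diamonds) lie at differences of 3.09 to 4.02, among the points of the neighbouring germline miRNA genes, while the median of all probes was -0.12.

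Within the family the probes kept nearly the same order in the replicates of a genotype, but not between genotypes. In TKO cells the order of the signals was miR-465c-5p, miR-465b-5p, miR-465a-5p and the 3p probe in both replicates, and no neighbours in this order overlapped between samples. In WT cells miR-465b-5p was above miR-465c-5p, which was above miR-465a-5p, and the 3p probe overlapped with miR-465a-5p. Probes can differ in how well they capture their miRNA, so the order is one of signals and not of molecules in the cell. Following a ratio of the same probes across samples removes that reservation only where all signals stand above background. The WT signals did not.

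miR-465b-5p minus miR-465c-5p, the pair with a single substitution between them, was 0.59 and 0.24 on the log2 scale for WT, against -0.16 and -0.60 for TKO. miR-465a-5p minus miR-465c-5p was -0.35 and -0.52 for WT, against -1.06 and -1.10 for TKO. Both ratios moved toward miR-465c-5p, which had the largest difference of the 4 probes. miR-465a-5p minus miR-465b-5p was -0.94 and -0.76 for WT, against -0.91 and -0.51 for TKO, and these values overlapped. The ratio of the 3p probe to miR-465a-5p also overlapped, at 0.13 and -0.35 for WT, against -0.16 and -0.62 for TKO. Because WT signals lie at the level of the viral probes, WT ratios are ratios of signals that may be mostly background. Whether the shift toward miR-465c-5p is one of the miRNAs themselves was not tested.

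**Figure D3:**
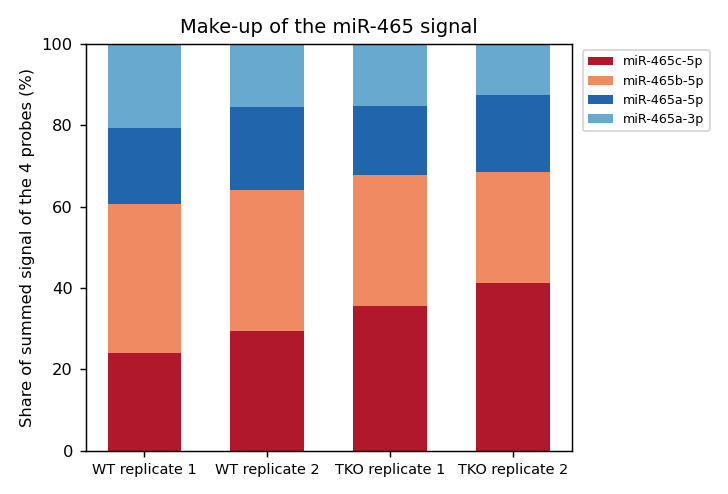
Share of the summed signal of the 4 miR-465 probes taken by each probe (%), 1 bar a sample. miR-465c-5p took 24.1% and 29.4% for WT, against 35.7% and 41.2% for TKO.

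The genes next to the family were read from lists of the other X-linked germline miRNAs of the region. These genes run from Mir743 to Mir470 on the same strand, ahead of Mir465d in coordinates, and the stretch from Mir743 to Mir465 covers 62.4 kb. The list of miR-741, miR-463, miR-880, miR-878, miR-881 and miR-871 had 7 probes, all 7 with a higher mean in TKO cells and 6 called higher by limma, with a median log2 difference of 2.29. The list of miR-743a, miR-743b, miR-742, miR-883a, miR-883b, miR-471 and miR-470 had 10 probes, all 10 with a higher mean and 5 called, with a median of 0.98. Over all mouse probes 38.3% had a higher mean in TKO cells, limma called 4.24% higher and the median was -0.12. The median of the 4 miR-465 probes was 3.30. By their mean over the 4 samples many neighbouring probes were near background. The threshold for this mean was 71.0 normalized counts, the average over samples of the viral mean plus 2 SD. Only 4 of the 7 and 2 of the 10 had a mean above it, against 4 of 4 for miR-465. Over those probes alone the medians were 3.06 and 2.96, but a probe that is low in WT passes this threshold only if its TKO level is high. With the viral mean subtracted from all probes they were 4.68 and 2.97, against 0.98 for the second list as first given. In TKO replicates 1 and 2 the viral mean plus 2 SD was 60.4 and 71.0 normalized counts. Every probe of the first list read above it in both. In the second list miR-743a, miR-743b-3p, miR-742, miR-471 and miR-470 did so, and miR-743b-5p and the miR-883a and miR-883b probes did not. Of the 11 calls in both lists, 7 were made without WT replicate 1, 4 without WT replicate 2 and 0 without either TKO replicate. The lists were chosen with earlier results of these data known, so their calls are a description and not independent support. The family and the lists were not tested against each other.

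In the first list the largest differences were those of miR-880 (4.09, SE 0.31) and miR-881 (3.57, SE 0.27) and the smallest that of miR-463 (0.15, SE 0.18, adjusted p = 0.689 from limma). In the second list they were those of miR-743b-3p (3.22, SE 0.23) and miR-471 (2.86, SE 0.33), and the smallest was that of miR-883b-5p (0.14, SE 0.23, adjusted p = 0.773 from limma). The sign of the latter turned without WT replicate 2 (-0.12). The means of miR-463 and miR-883b-5p over the 4 samples were below the background threshold of 71.0 normalized counts, so that their small differences do not show how these genes changed. The mean of miR-471 was below it too, with 11.8 and 17.5 for WT against 141 and 86.8 for TKO. For miR-880, miR-881 and miR-743b-3p the WT values, 12.6 to 30.0 normalized counts, lay below the viral mean of their sample. The sizes of these large differences are thus not resolved either. miR-463 is encoded between miR-741, with a difference of 2.56, and miR-880.

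**Figure D4:**
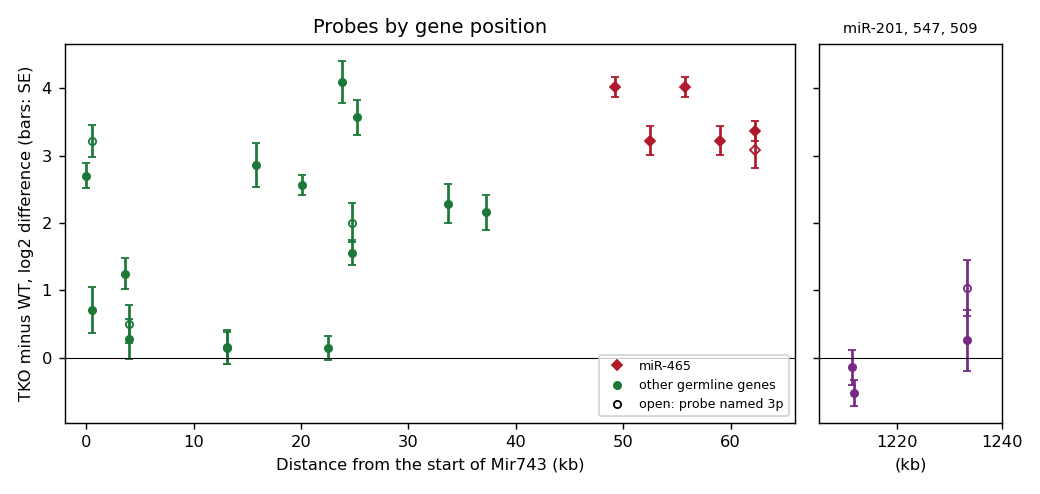
Difference between TKO and WT (log2, bars are SE) of each probe of the region against the distance of its gene from the start of Mir743 in kb, with the distant genes Mir201, Mir547 and Mir509 in the right panel. miR-465b-5p and miR-465c-5p are drawn at both of their gene copies with the same value. The miR-465 probes at the right end of the cluster lie between 3.09 and 4.02, and the probes of the distant genes between -0.52 and 1.04.

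Some 1149 kb beyond Mir465, and still before Fmr1, lie Mir201, Mir547 and Mir509. Their 4 probes were not above background, limma called none of them (and 1 lower at an unadjusted p under 0.05, with 0 calls by voom), and 2 had a higher and 2 a lower mean in TKO cells. For miR-201 the WT samples read 69.6 and 50.5 normalized counts and the TKO samples 45.5 and 63.3. The same values were 36.4 and 44.7 against 25.7 and 30.0 for miR-547, and 68.5 and 29.1 against 46.5 and 62.2 for miR-509-5p. For miR-509-3p they were 11.8 and 4.86 against 18.8 and 15.0. The groups overlapped for miR-201 and miR-509-5p.

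The rest of the X chromosome was read from 50 further probes whose genes all lie on X. Of these, 17 had a higher and 33 a lower mean in TKO cells, with a median log2 difference of -0.23 and a largest rise in mean of 0.90 (miR-322, a miRNA linked to cell differentiation). limma called 0 of the 50 higher (2 at an unadjusted p under 0.05, and 1 by voom) and 3 lower. The shares of all 566 mouse probes were 38.3% with a higher mean, 4.24% called higher and 4.24% called lower, with a median of -0.12. The 24 probes called higher include the 4 of miR-465 and 11 of the neighbouring lists. Outside miR-465 and the germline lists of the region, limma called 9 of 541 mouse probes higher and 24 lower. Beside that share, 0 of 50 called higher is no clear deficit. Of the 50 probes 12 were above background. Their median was -0.42, and that of all 50 was 0 with the viral mean subtracted.

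By likeness of profile, the 5 other mouse probes nearest to the mean of the miR-465 5p probes were miR-302a, miR-881, miR-743b-3p, miR-880 and miR-743a. Likeness was the Euclidean distance between log2 profiles over the 4 samples, each centred on its own mean, and was 0.36, 0.44, 0.56, 0.76 and 0.89 for these probes. The 3p probe of the family was at 0.61 and the single 5p probes at 0.19 to 0.51 from their mean. 4 of the 5 nearest are encoded in the same stretch of the X chromosome. miR-302a is not, and belongs to a cluster known from primed pluripotent cells and the epiblast. With 2 samples a genotype such a distance reflects mostly the size of the TKO minus WT difference.

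miR-743b-3p, with 19.3 and 18.5 normalized counts for WT against 152 and 223 for TKO, is the nearest of these whose name matches a mature miRNA of the RefSeq table as it stands, and it is printed to show that its seed is another one.
miR-743b-3p: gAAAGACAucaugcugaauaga

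miRNA markers of other cell types were read beside the family, since its known site of expression is the testis. Of 8 probes for miRNAs enriched in the testis that lie outside the region (miR-34b, miR-34c, miR-449a, b and c, and miR-202), 5 had a higher and 3 a lower mean in TKO cells, the median log2 difference was 0.028, and limma called none (1 lower at an unadjusted p under 0.05, and 0 by voom). Their sum was 647 and 783 normalized counts for WT against 1043 and 937 for TKO, of which miR-34c alone had 419.5 and 629 against 840 and 747. The difference of miR-34c was 0.62 (SE 0.25, adjusted p = 0.227 from limma). The other 7 probes read 62.2 normalized counts or less in every sample, and the miR-449 probes read 5.93 to 19.3 normalized counts. The part of germ cells in the miR-465 levels was not tested.

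The 5 probes of the miR-302 cluster had higher means in TKO cells, with 4 called and a median of 1.93, and their sum was 373 and 349 normalized counts for WT against 1649 and 2021 for TKO. miR-302d, the highest of them, went from 142 ± 7.59 to 681 ± 90.1 normalized counts (SD, log2 difference 2.25, SE 0.17, adjusted p = 0.00539 from limma). Of the 5 probes 3 were above background. The WT values of miR-302a, 47.1 and 53.4, lay below the viral mean plus 2 SD of their samples (88.1 and 64.4). The size of its difference is thus not resolved. Of the 11 probes of the miR-290 to miR-295 cluster 9 had a lower mean, with a median of -0.22 and 0 called by limma (0 at an unadjusted p under 0.05, and 3 lower by voom). Its highest, miR-294, had a mean of 100699 ± 2028 normalized counts for WT against 93552 ± 8079 for TKO. The neural miRNAs miR-124 and miR-9 had lower means in TKO cells, and miR-124 fell from 479 ± 29.9 to 133 ± 1.11 normalized counts (log2 difference -1.84, SE 0.15, adjusted p = 0.00620 from limma). Of 5 fibroblast probes (miR-143, miR-145, miR-199a and miR-214) 1 had a higher mean, and their median was -0.12. The highest of them, miR-145, had a difference of -0.29. Of 33 probes for the miR-297, miR-466, miR-467 and miR-669 miRNAs of the Sfmbt2 repeat cluster, known from the trophoblast, 5 had a higher and 28 a lower mean, with a median of -0.37, and the highest, miR-669f, had a difference of -0.67. Beside these lists and the testis list, 38.3% of all mouse probes had a higher mean in TKO cells, with a median of -0.12. Of all mouse probes limma called 4.24% higher and 4.24% lower, and outside miR-465 and the germline lists of its region 9 of 541 higher and 24 lower. The marker lists, too, were chosen with earlier results of these data known. The part of these markers in the miR-465 levels was not tested.

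**Figure D5:**
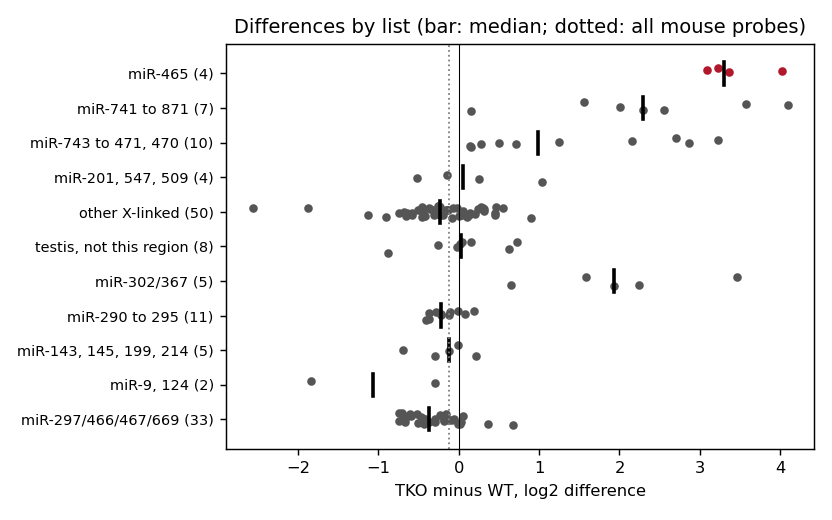
Difference between TKO and WT (log2) of each probe, by list, with the number of probes in brackets, the median of each list as a black bar and the median of all mouse probes (-0.12) as a dotted line. The miR-465 probes lie at 3.09 to 4.02, and the other probes above 3.09 are miR-880, miR-881, miR-743b-3p and miR-302a.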

How the data were processed

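Total RNA was profiled with the NanoString nCounter miRNA assay, which counts single molecules through barcoded probes. The authors normalized the counts with nSolver and deposited log2 values, with 1 value per probe and sample. The version, background handling and scaling probes are not given in the sources used here. The deposited log2 values were turned back to linear normalized counts, and all values in each sample were whole multiples of 1 factor (0.971 to 1.07) within a tolerance of 0.05 counts, which gave the recovered counts.

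Samples were grouped by their titles. limma (lmFit, eBayes, version 3.58.1, R 4.3.3) was fitted to log2 of the normalized count plus a pseudocount of 1 over 566 mouse probes and all 4 samples, with Benjamini-Hochberg adjustment at 0.05. A probe was above background where its mean passed 71.0 normalized counts, the mean over samples of the viral mean plus 2 SD. Fold bounds used each sample's own threshold. Positions and sequences were from RefSeq (GRCm38.p6), and 530 mouse probes were matched to a gene by name. Named beside the family were the 5 nearest profiles, the 2 largest and the smallest difference in each neighbouring list, the distant genes of the region and the highest probe of each marker list. Further probes (miR-741, miR-322, miR-9 and the summed or lesser marker probes) were named after their values were seen. The members and lists were chosen with earlier results of these data known. With 200 of 566 simulated probes changed by a factor of 2 for TKO against WT, limma recovered 81.5% with 2.98% false calls. The simulated dispersion was set to 0.01 and not estimated from these data, so these rates need not hold for them. Tables were handled with pandas 2.3.3 and numpy 2.4.6 in Python 3.11.15, intervals came from scipy 1.17.1 and plots from matplotlib 3.10.9. Alternatives covered pseudocounts of 0.5 and 10, scaling by the sum, the median or the viral probes, background subtraction, a filter, limma's voom on recovered counts, a replicate block and each replicate left out.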

Additional observations from a re-analysis of the deposited data

How the results depend on the processing

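The mean log2 difference of the 4 miR-465 probes was 3.43, and it moved by more than the spread between replicates with a pseudocount of 10 (3.06) and with the viral mean subtracted (6.44). With single samples left out it lay between 3.33 and 3.53, and limma then called 4 of the 4 probes without WT replicate 1, 3 without WT replicate 2 and 0 without either TKO replicate. All 4 kept their direction under every alternative run. Over all mouse probes limma called 24 higher and 24 lower. Lower calls were 14 with the viral mean subtracted, 55 with voom on recovered counts and 48 of 230 probes above the viral threshold. With the replicate number as a block (replicate block) they were 10, with 20 higher. The numbers gave no sign of pairing, as replicate 1 minus replicate 2 correlated between the genotypes at -0.094 over probes. That value cannot exclude that samples were handled in pairs. Leaving out single samples gave 0 to 13 calls higher and 0 to 1 lower, with 0 in both directions without TKO replicate 1 (39 higher and 75 lower at an unadjusted p under 0.05) or TKO replicate 2 (37 and 64). The neighbouring germline lists had 11 probes called higher, 7 with the viral mean subtracted, 6 with the filter and 0 to 7 with single samples left out (7 without WT replicate 1, 4 without WT replicate 2 and 0 without either TKO replicate). The median of all mouse probes was 0.0089 after division by the sum of each sample, a shift that the miR-465 differences share, and that of miR-294 was 0.026. Some small differences turned their sign. The median of the distant list of miR-201, miR-547 and miR-509 was 0.058, -0.10 with the viral mean subtracted, and -0.36 (without WT replicate 2) to 0.47 with single samples left out. The same range was -0.23 to 0.28 for the testis median, -0.12 to 0.40 for miR-883b-5p, -0.38 to 0.092 for miR-201 and -0.34 to 0.86 for miR-509-5p. With the viral mean subtracted, the median of the miR-290 to miR-295 probes was -0.11 in place of -0.22, and the testis median was 0.24, or 0.62 with the filter, which left miR-34c alone. Background limits the WT values of the family, which lay at 0.255 to 0.573 times the viral threshold.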
